A study of Mirounga angustirostris with 8 samples.

Results

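The genes described here are the cell cycle and DNA replication genes of seal skeletal muscle, a list of 40 symbols that covers the cyclins, their kinases and inhibitors, the replication machinery, mitotic genes and the GADD45 family. Members were chosen by gene symbol, with a summed raw count of 80 or more over all libraries as the limit, which 33 of the 40 met among 24341 named genes in the table. RNA came from biopsies of the longissimus dorsi of adult female northern elephant seals (Mirounga angustirostris), which fast on land with little activity during the annual molt. Of the 8 libraries, 4 were post-molt (late molt in the sample records, after a mean of 34 days, seals 4448, 5572, 9678 and X410) and 4 were pre-molt (early molt, at most 5 days after arrival, seals 5572, 5842, 6762 and C497). Seal 5572 alone gave both a post-molt and a pre-molt library, so the groups were compared unpaired, and both were limited to the biopsies that gave the most unique reads. The question was which of these genes differed between muscle after about a month of fasting ashore and muscle sampled soon after haul-out.

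A cell enters the cycle when D-type cyclins activate CDK4 and CDK6, which phosphorylate the RB1 protein and release E2F factors. E2F factors then switch on cyclin E, the MCM helicase and the enzymes that make deoxynucleotides, and mitotic genes such as CDK1, PLK1 and AURKB follow. Mature muscle fibers have left the cycle for good. Dividing cells in resting muscle are mostly satellite cells, the stem cells of muscle, and cells of vessels, connective tissue and immune origin, while fibers keep CDK inhibitors and stress-responsive GADD45 genes in use for other purposes.

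Library totals ran from 30774895 to 61229829 counts post-molt and from 37905311 to 56150332 pre-molt. Libraries differed in how many genes they missed. Among 14828 genes with a summed count of 80 or more, 16.9% were listed at 0 in post-molt 9678, 10.7% in post-molt 4448 and 9.93% in pre-molt 5842, against 0.317 to 5.13% in the other 5 libraries. Post-molt 4448 had the most reads of all, so its missing genes did not go with a low total. Post-molt 9678 had the lowest total. In the paper it also had the lowest share of uniquely mapped reads, with pre-molt 5842 next. The part of read totals and mapping in the missed genes was not tested. Values below are counts-per-million (CPM), with library sizes adjusted for composition by TMM factors, and SD is over the 4 libraries of a group.

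Of the 33 members, 31 passed the filter on low counts and were tested with the quasi-likelihood test of edgeR among 14314 genes. After Benjamini-Hochberg adjustment over all genes tested, 0 of the 31 members passed at 0.05, where 0.349% of all genes did (0.217% higher and 0.133% lower). Without adjustment, at p under 0.05, 2 members were higher post-molt (GADD45G and CDKN1B) and 5 were lower (GADD45A, MCM3, MCM7, E2F1 and CCND3), or 22.6% of those tested, against 11.4% of all genes (5.20% higher and 6.22% lower). DESeq2, run as an alternative, gave no adjusted p to 18 of the 40 listed symbols. Among the rest it called 2 members higher and 2 lower, against 6.52% of all genes to which it gave an adjusted p (3.35% higher and 3.16% lower). These were GADD45G, CDKN1B, GADD45A and MCM3, and the same 4 were the tested members whose post-molt and pre-molt libraries did not overlap, or 12.9% of the 31 against 9.15% of all genes (4.04% higher and 5.11% lower). The median log2 fold change (post-molt over pre-molt) of the members was -0.39, against -0.04 over all genes, and 22 of 31 members were below 0 (71.0%), against 53.6% of all genes. Without post-molt 4448 that median was -0.16. The number lower at an unadjusted p under 0.05 was 3 without post-molt X410, without pre-molt 5572 or without pre-molt 5842.

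**Figure D1:**
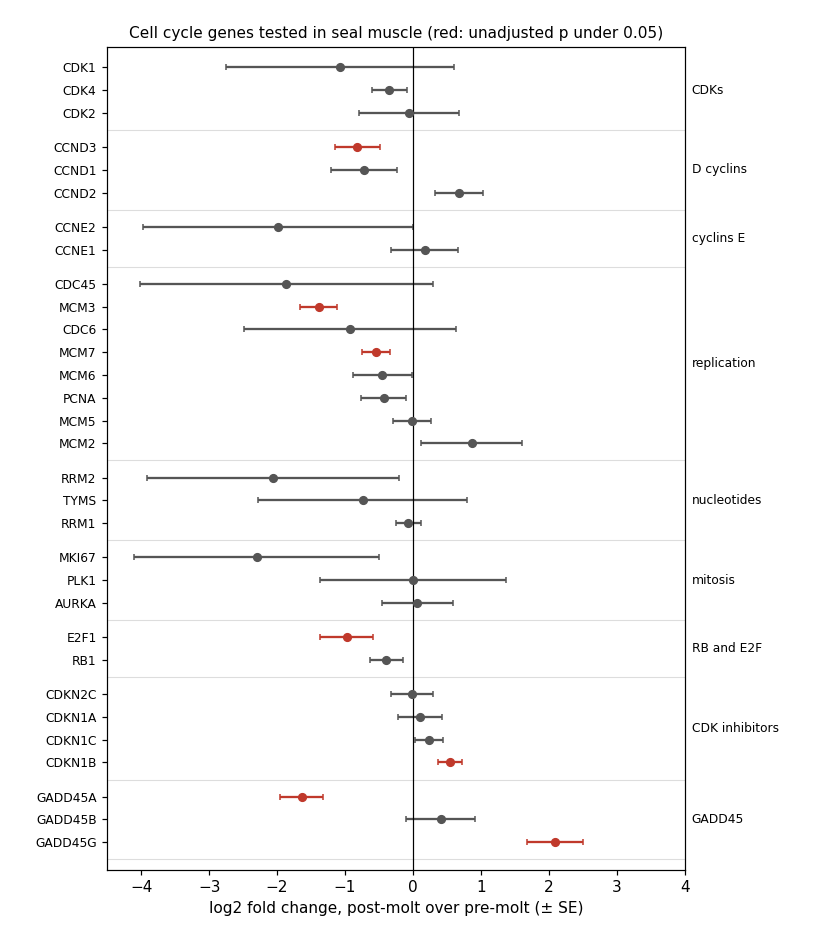
Log2 fold change (post-molt over pre-molt, x axis) of the 31 cell cycle genes tested, by role; points are edgeR estimates and bars their standard errors. GADD45G (2.10) and GADD45A (-1.64) lie farthest from 0 among the genes at an unadjusted p under 0.05 (red), and genes with few reads such as MKI67 and CDC45 have the widest bars.

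The GADD45 genes, whose small proteins bind PCNA, CDK1 and stress kinases, differed in direction. GADD45A, a growth arrest gene that p53 and ATF4 induce in human and mouse cells, had 16.9, 27.3, 41.0 and 15.8 CPM in post-molt seals 4448, 5572, 9678 and X410, against 92.8, 76.1, 94.6 and 51.1 CPM in pre-molt seals 5572, 5842, 6762 and C497. Every post-molt library was below every pre-molt library. The mean was 25.3 ± 11.7 CPM post-molt and 78.6 ± 20.1 CPM pre-molt, 3.12-fold lower post-molt (log2 fold change -1.64 ± 0.32 SE, edgeR adjusted p = 0.0531). DESeq2 (adjusted p = 0.000176), limma-voom (0.0222) and edgeR with no filter called it lower, and over 18 alternatives the adjusted p ranged up to 0.251. The edgeR call was made without post-molt 9678 (-1.97, adjusted p = 0.0280) or without pre-molt C497 (-1.80, adjusted p = 0.0488).

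GADD45G, a family member that also acts in growth arrest, had 52.8, 16.1, 23.3 and 36.4 CPM in post-molt seals 4448, 5572, 9678 and X410. Its pre-molt values were 9.59, 3.45, 10.2 and 6.75 CPM in seals 5572, 5842, 6762 and C497. The groups did not overlap, and post-molt 4448 was the highest library. GADD45G averaged 32.2 ± 16.2 CPM post-molt and 7.51 ± 3.10 CPM pre-molt, 4.28-fold higher post-molt (2.10 ± 0.41, edgeR adjusted p = 0.0540). DESeq2 called it higher (adjusted p = 0.000107, with a range up to 0.407 over 18 alternatives), as did edgeR with no filter or without post-molt 5572 (2.34, adjusted p = 0.0478). Without post-molt 4448 the fold change was 1.75 (adjusted p = 0.140).

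GADD45B, which responds to inflammatory and growth factor signals, did not differ beyond its spread. It had 5.86, 14.9, 16.9 and 11.9 CPM post-molt, against 8.30, 10.2, 2.198 and 16.8 CPM pre-molt, in the same order of seals (0.41 ± 0.51, edgeR adjusted p = 0.855). The pre-molt libraries alone covered nearly the whole range. Within single libraries, where no scaling enters, the GADD45G count over the GADD45A count was 3.14, 0.589, 0.567 and 2.302 post-molt and 0.103, 0.0453, 0.108 and 0.132 pre-molt. This ratio was chosen after its values were seen and is given without a test.

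**Figure D2:**
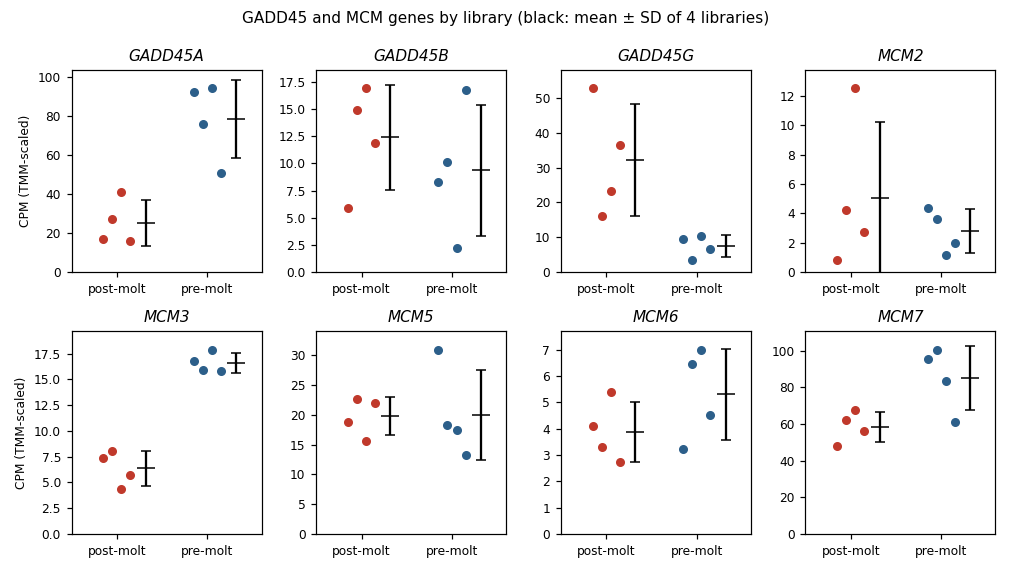
CPM (y axis, linear, from 0) of the GADD45 and MCM genes in each library, post-molt left and pre-molt right; dots are libraries and black marks the mean ± SD of 4. GADD45A and MCM3 lie lower and GADD45G higher in all 4 post-molt libraries, while MCM5 averages 19.8 CPM post-molt and 19.98 CPM pre-molt.

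The MCM proteins form the ring-shaped helicase that opens DNA at replication origins, and the differences of its subunits were unequal in size, with 4 of the 5 tested MCM genes below 0. MCM3 had 7.37, 8.03, 4.32 and 5.69 CPM in post-molt seals 4448, 5572, 9678 and X410, against 16.8, 16.0, 17.9 and 15.8 CPM in pre-molt seals 5572, 5842, 6762 and C497. Its groups were the most widely separated of the helicase genes, with a narrow pre-molt range. The mean was 6.35 ± 1.67 CPM post-molt and 16.6 ± 0.954 CPM pre-molt, 2.61-fold lower post-molt (-1.39 ± 0.27, edgeR adjusted p = 0.0544). MCM3 was called lower by DESeq2 (adjusted p = 5.24e-05) by limma-voom (0.0420) and by edgeR with no filter, and its adjusted p ranged up to 0.366 over 18 alternatives.

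MCM7, whose mRNA also hosts a microRNA cluster in an intron in mammals, had 48.0, 62.0, 67.5 and 56.0 CPM in the post-molt libraries and 95.3, 100.5, 83.6 and 60.8 CPM in the pre-molt libraries. Pre-molt C497 fell inside the post-molt range. The fold change was -0.54 ± 0.20 (58.4 ± 8.33 CPM post-molt and 85.0 ± 17.6 CPM pre-molt, edgeR adjusted p = 0.301). MCM5 gave -0.01 ± 0.28 (19.8 ± 3.23 and 19.98 ± 7.63 CPM, adjusted p = 0.995) and MCM6 gave -0.45 ± 0.43 (3.88 ± 1.16 and 5.31 ± 1.74 CPM, adjusted p = 0.795), post-molt first in both. MCM2 rested on 1 library. It had 0.788, 4.22, 12.6 and 2.75 CPM post-molt, against 4.40, 3.61, 1.16 and 1.98 CPM pre-molt, and its fold change of 0.86 ± 0.75 became -0.10 without post-molt 9678. MCM4 had 0, 1, 0 and 0 reads post-molt and 12, 0, 0 and 35 reads pre-molt, below the limit. The ratio of MCM3 to MCM5 reads within a library, chosen after its values were seen, was 0.391, 0.353, 0.276 and 0.259 post-molt and 0.544, 0.875, 1.03 and 1.19 pre-molt. For MCM3 to MCM7 reads, chosen in the same way, the groups nearly touched. That ratio was 0.0641 to 0.153 post-molt and 0.159 to 0.260 pre-molt.

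PCNA, the sliding clamp of DNA polymerases that also serves DNA repair, had 6.68, 19.6, 24.7 and 16.3 CPM post-molt, against 22.0, 22.2, 20.4 and 26.0 CPM pre-molt. Only post-molt 4448 stood well below the rest (-0.43 ± 0.33, edgeR adjusted p = 0.716), and without it the fold change was -0.16. CDC6, which loads the helicase, and CDC45, which activates it, had too few reads for a narrow estimate. CDC6 had 47, 18, 0 and 5 reads post-molt and 15, 45, 19 and 20 reads pre-molt. CDC45 had 0, 11, 0 and 16 reads post-molt and 55, 0, 53 and 0 reads pre-molt. Neither pattern separated the groups.

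CDKN1B codes for p27, a CDK inhibitor that holds cells in quiescence. It had 60.1, 53.9, 50.6 and 65.1 CPM in post-molt seals 4448, 5572, 9678 and X410, against 39.5, 34.4, 41.4 and 42.3 CPM in pre-molt seals 5572, 5842, 6762 and C497. All post-molt libraries were above all pre-molt libraries. The mean was 57.4 ± 6.46 CPM post-molt and 39.4 ± 3.54 CPM pre-molt, 1.46-fold higher post-molt (0.54 ± 0.18, edgeR adjusted p = 0.210). Of the alternatives DESeq2 alone called it (adjusted p = 0.0162, with a range up to 0.605 over 18 alternatives), and leaving out single libraries gave 0.48 to 0.60.

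CDKN1A, the p21 inhibitor that p53 and glucocorticoids can induce, had 7.01, 8.08, 9.68 and 5.85 CPM post-molt and 7.09, 5.96, 5.71 and 9.79 CPM pre-molt. The groups covered the same range (0.10 ± 0.33, edgeR adjusted p = 0.955), and without post-molt 9678 the estimate was -0.03. CDKN1C, the p57 inhibitor of terminally differentiated muscle, was at 47.3 ± 5.11 CPM post-molt and 40.1 ± 9.69 CPM pre-molt (0.24 ± 0.20, adjusted p = 0.764). CDKN2C, the p18 inhibitor of CDK4 and CDK6, was at 17.6 ± 6.38 and 17.8 ± 5.14 CPM, post-molt first (-0.01 ± 0.31, adjusted p = 0.996). Of the 4 inhibitors, CDKN1B was the 1 whose groups did not overlap.

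**Figure D3:**
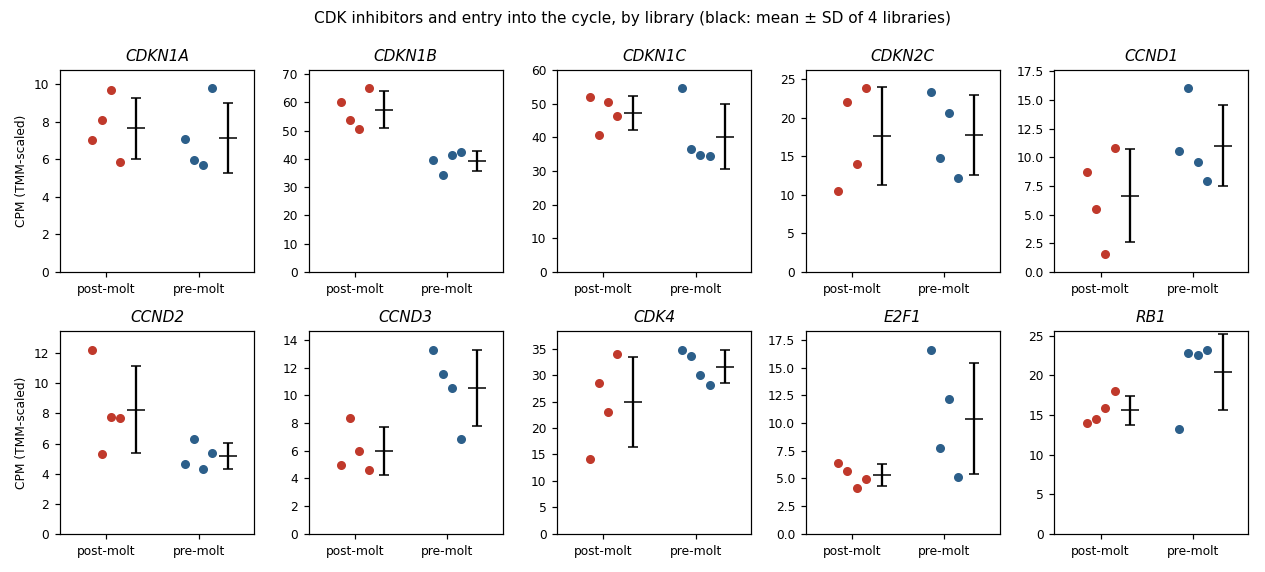
CPM (y axis, linear, from 0) of CDK inhibitors, D cyclins, CDK4, E2F1 and RB1 in each library, post-molt left and pre-molt right; dots are libraries and black marks the mean ± SD of 4. CDKN1B is the only gene shown whose groups do not overlap (at least 50.6 CPM post-molt and at most 42.3 CPM pre-molt).

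Among the D cyclins, which carry growth signals to CDK4 and CDK6, CCND3 is the member best known from differentiating muscle. CCND3 had 4.94, 8.39, 6.002 and 4.62 CPM in post-molt seals 4448, 5572, 9678 and X410, against 13.3, 11.6, 10.51 and 6.83 CPM in pre-molt seals 5572, 5842, 6762 and C497. Pre-molt C497 lay below post-molt 5572, so the groups overlapped (-0.82 ± 0.33, edgeR adjusted p = 0.349). CCND2 had 12.2, 5.33, 7.78 and 7.69 CPM post-molt, against 4.66, 6.27, 4.34 and 5.39 CPM pre-molt (0.68 ± 0.35, adjusted p = 0.527). Its values ran the other way from those of CCND3, with post-molt 4448 the highest. CCND1 had 8.73, 5.50, 1.55 and 10.8 CPM post-molt and 10.51, 16.0, 9.59 and 7.93 CPM pre-molt, with post-molt 9678 the lowest (-0.72 ± 0.49, adjusted p = 0.661). Within libraries, the CCND2 count over the CCND3 count was 0.636 to 2.47 post-molt and 0.351 to 0.789 pre-molt, so the groups overlapped. This ratio was also chosen after its values were seen. The difference between cyclins was not tested.

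CDK4, the kinase partner of D cyclins, had 14.1, 28.6, 23.0 and 34.0 CPM post-molt, against 34.8, 33.6, 30.0 and 28.2 CPM pre-molt. The post-molt libraries spread more widely and included the pre-molt range in part (-0.35 ± 0.26, edgeR adjusted p = 0.703). CDK6 had 1 read in all libraries together and cannot be described from so few reads. CDK2, the partner of cyclins E and A, was at 2.05 ± 1.13 CPM post-molt and 2.13 ± 0.939 CPM pre-molt (-0.06 ± 0.74, adjusted p = 0.991).

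E2F1, the activating transcription factor held by RB1, had 6.41, 5.67, 4.098 and 4.95 CPM in post-molt seals, against 16.6, 7.78, 12.1 and 5.10 CPM in pre-molt seals 5572, 5842, 6762 and C497. Pre-molt values spread over a wide range, and pre-molt C497 sat among the post-molt libraries (-0.98 ± 0.39, edgeR adjusted p = 0.333). Without pre-molt 5572 the fold change was -0.65. RB1 had 14.0, 14.4, 15.9 and 18.01 CPM post-molt, against 13.2, 22.8, 22.6 and 23.2 CPM pre-molt (-0.39 ± 0.24, adjusted p = 0.615). Pre-molt 5572 was the lowest of all 8 libraries for RB1, while the other 3 pre-molt libraries were above every post-molt library.

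RRM1, the large subunit of the enzyme that makes deoxynucleotides, was even across libraries, at 36.6 ± 4.41 CPM post-molt and 38.5 ± 4.59 CPM pre-molt (-0.07 ± 0.18, edgeR adjusted p = 0.943). AURKA, a kinase of the spindle poles, was at 6.13 ± 3.97 and 5.87 ± 1.59 CPM, post-molt first (0.06 ± 0.52, adjusted p = 0.983). CCNE1, a partner of CDK2 at the start of DNA synthesis, was at 3.92 ± 0.915 and 3.48 ± 1.39 CPM in the same order (0.17 ± 0.49, adjusted p = 0.950). For each of these 3 genes the difference was smaller than its standard error.

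MKI67 and TOP2A, which mark cycling cells, were close to the limit of detection. MKI67 had 0, 5, 0 and 15 reads in post-molt seals 4448, 5572, 9678 and X410, against 24, 16, 50 and 12 reads in pre-molt seals 5572, 5842, 6762 and C497. In CPM these were 0, 0.139, 0 and 0.297 post-molt and 0.571, 0.502, 0.923 and 0.202 pre-molt. The 2 post-molt libraries with reads overlapped the pre-molt range through X410, and the difference did not pass (edgeR adjusted p = 0.721). TOP2A had 0, 2, 0 and 6 reads post-molt and 6, 17, 20 and 36 reads pre-molt (0 to 0.119 CPM and 0.143 to 0.605 CPM). Its groups did not overlap, but it did not pass the filter and was not tested with edgeR. DESeq2 gave TOP2A an unadjusted p of 0.0454 and no adjusted p. In bulk tissue, fewer cells of a type and less RNA per cell cannot be told apart.

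Zeros of such genes were concentrated in post-molt 9678 and post-molt 4448, the 2 libraries that missed the most genes. They did not follow the share of missed genes throughout. Pre-molt 5842 missed nearly as many genes as post-molt 4448 (9.93% against 10.7%) but was at 0 in only 2 members. Of the 33 members, 23 had reads in every library and 10 were at 0 in at least 1. These were CDK1, CCNE2, CCNA2, CDC6, CDC45, RRM2, TYMS, MKI67, TOP2A and PLK1. Post-molt 4448 was at 0 in 9 of the 10 and post-molt 9678 in 8, whereas post-molt 5572 was at 0 in none and post-molt X410 in 1. Among pre-molt libraries, 5842 and C497 were at 0 in 2 each and 5572 and 6762 in none. Summed over the 10 genes, post-molt libraries held 0.674, 5.94, 3.97 and 4.42 CPM and pre-molt libraries 6.80, 8.69, 8.53 and 5.14 CPM, in the order of seals above. The limit that 3 reads set was 0.0430 to 0.0968 CPM post-molt and 0.0504 to 0.0941 CPM pre-molt, a bound from counting error only. The part that missed genes had in the lower post-molt values was not tested.

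**Figure D4:**
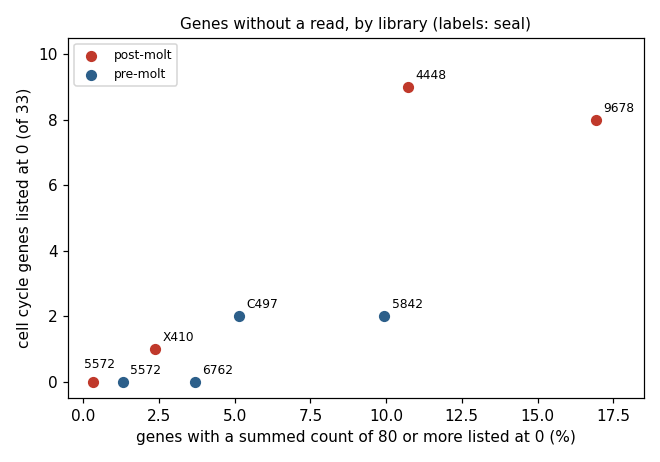
Share of genes with a summed count of 80 or more listed at 0 (x axis, %) against the number of the 33 cell cycle genes listed at 0 (y axis), 1 point per library with its seal. Post-molt 4448 (9 genes) and post-molt 9678 (8 genes) stand apart from the other 6 libraries, which have 0 to 2.

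Most zeros of the other genes with few reads were in post-molt 4448 and 9678, although CCNE2 and CCNA2 were also at 0 in other libraries. CDK1, the mitotic kinase, had 0, 33, 0 and 32 reads post-molt and 36, 40, 46 and 19 reads pre-molt, and TYMS, which makes thymidylate, had 0, 72, 0 and 70 reads post-molt and 57, 38, 117 and 57 reads pre-molt. For both genes post-molt 5572 and X410 lay inside the range of the pre-molt libraries in CPM, and only the 2 libraries at 0 lay outside. RRM2, the cycle-dependent subunit of ribonucleotide reductase, had 0, 9, 0 and 21 reads post-molt and 16, 17, 101 and 2 reads pre-molt. PLK1, a mitotic kinase, had 0, 49, 58 and 47 reads post-molt and 52, 17, 22 and 118 reads pre-molt. CCNE2, a partner of CDK2, had 0, 6, 0 and 11 reads post-molt and 18, 0, 23 and 42 reads pre-molt. Their standard errors were 1.37 to 1.99 log2 units, so that a 2-fold difference would not have been detectable. CCNA2, the cyclin of S phase, had 0, 9, 65 and 0 reads post-molt and 7, 87, 11 and 0 reads pre-molt and did not pass the filter.

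The members under a summed count of 80 were CDK6, CCNB1, CCNB2, MCM4, CDC20, BUB1 and AURKB. CCNB1, the mitotic cyclin, had 0, 1, 0 and 0 reads post-molt, against 19, 21, 8 and 19 reads pre-molt, and its groups did not overlap, but with 68 reads in all it did not pass the filter and was not tested with edgeR. DESeq2, which did not filter it beforehand, gave CCNB1 an unadjusted p of 0.00164 and no adjusted p. CCNB2 had reads in pre-molt C497 alone (27). AURKB, a kinase of the chromosomal passenger complex, had 0, 4, 0 and 0 reads post-molt and 16, 33, 0 and 0 reads pre-molt. CDC20, an activator of the anaphase-promoting complex, had 32 reads and the checkpoint kinase gene BUB1 27 reads in all.

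For the animal with a library at each time, seal 5572, the log2 ratio of post-molt over pre-molt CPM had the sign of the group difference for each of the 7 members at an unadjusted p under 0.05. It was -1.77 for GADD45A, 0.74 for GADD45G, -1.07 for MCM3, 0.45 for CDKN1B, -0.62 for MCM7, -1.55 for E2F1 and -0.66 for CCND3. These values come from libraries that are part of the group comparison and are no separate test of it. Genes with few reads were compared only where both libraries of this animal held at least 10. Those had no common direction, with 0.10 for CDK1, 0.49 for CDC6, 0.56 for TYMS and 0.14 for PLK1 against -2.10 for CDC45. The limit itself left out tested members that were lower post-molt in this animal. These were MKI67 (5 reads post-molt and 24 pre-molt), RRM2 (9 and 16) and CCNE2 (6 and 18). Members not tested with edgeR and left out went both ways, such as CCNB1 (1 and 19) and CCNA2 (9 and 7). Post-molt 5572 was also the library with the fewest genes at 0.

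Another 173 genes of the cycle were listed by function, of which 170 were in the table and 142 were tested. None passed the edgeR test (0 called). Taken without adjustment, 2 (PLK3 and E2F6) were higher and 14 lower at p under 0.05, against 5.20% of all genes higher and 6.22% lower. DESeq2 gave no adjusted p to 83 of the 170 and called 0 higher and 7 lower, against 3.35% and 3.16% of all genes to which it gave one. The median log2 fold change of the 142 was -0.22. Of the replication fork enzymes (polymerases, clamp loaders, RPA and DNA ligase), 24 of 25 were below 0, against 53.6% of all genes, with a median of -0.37, although only 3 had an unadjusted p under 0.05. Without pre-molt 5842, 19 of 25 were below 0, and without both pre-molt 5842 and post-molt 9678, 18 of 25. Lists for RB, E2F and the DREAM complex (median -0.01, 8 of 16 below 0) and for origin licensing and firing (median 0.05, 7 of 18 below 0) had no common direction. For APC/C and SCF ubiquitin ligases the median was -0.16 (14 of 21 below 0), for CDK regulators -0.29 (12 of 17), for the p53 pathway -0.27 (12 of 18), for nucleotide supply -0.37 (6 of 7), for kinetochore and checkpoint genes -0.56 (6 of 7) and for spindle and cytokinesis genes -0.37 (8 of 13).

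**Figure D5:**
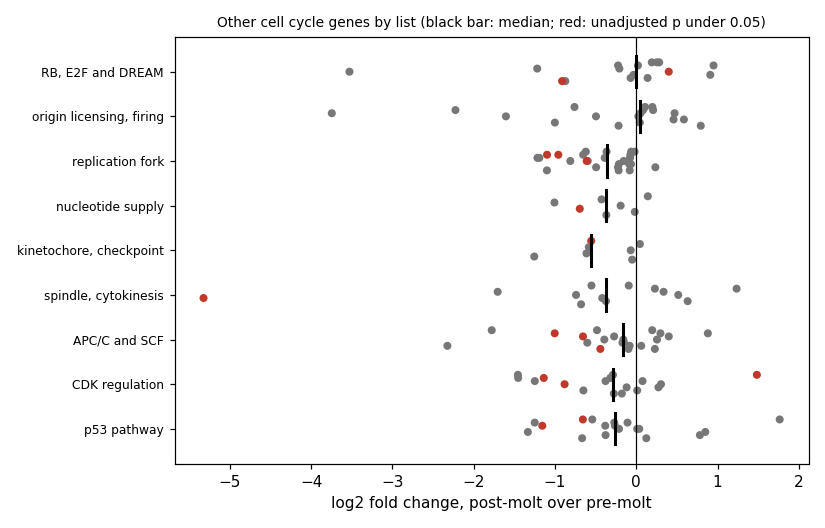
Log2 fold change (post-molt over pre-molt, x axis) of 142 other cell cycle genes by list, with the median as a black bar and genes at an unadjusted p under 0.05 in red. Medians lie between -0.56 (kinetochore and checkpoint) and 0.05 (origin licensing and firing).

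The 6 of these genes with the smallest p were all lower post-molt and were called by DESeq2 but not by edgeR, except that edgeR with no filter on low counts called FBXW7 and TP53INP1. With DESeq2 the adjusted p was 0.00267 for FBXW7 and 0.0405 for LIG1, and over 18 alternatives the highest was 0.446 and 0.493. FBXW7, the ubiquitin ligase subunit that marks cyclin E and MYC for destruction, had 30.4, 27.1, 17.2 and 24.5 CPM in post-molt seals 4448, 5572, 9678 and X410, against 39.7, 60.8, 47.5 and 51.1 CPM in pre-molt seals 5572, 5842, 6762 and C497. Its groups did not overlap (-1.004 ± 0.22, edgeR adjusted p = 0.0701). TP53INP1, a p53-induced stress gene, had 10.8, 12.5, 19.6 and 14.4 CPM post-molt and 25.1, 22.7, 39.5 and 39.98 CPM pre-molt, again without overlap (-1.16 ± 0.27, adjusted p = 0.0800). CCNG1, a p53 target despite its cyclin name, had 397, 429, 425 and 491 CPM post-molt and 735, 1109, 820 and 549 CPM pre-molt (-0.88 ± 0.23, adjusted p = 0.105).

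RBL2 codes for p130, the RB relative that represses cell cycle genes in resting cells, and was at 46.1 ± 8.66 CPM post-molt and 86.8 ± 33.2 CPM pre-molt (-0.91 ± 0.26, edgeR adjusted p = 0.156). CDC25B, a phosphatase that activates CDKs, was at 9.30 ± 2.80 and 20.5 ± 7.39 CPM (-1.14 ± 0.34, adjusted p = 0.165), and LIG1, which joins the fragments of the lagging strand, at 15.1 ± 3.78 and 29.4 ± 9.75 CPM (-0.96 ± 0.29, adjusted p = 0.179), post-molt first in both. In each of these 3 genes 1 or more pre-molt libraries overlapped the post-molt range. The list of genes lower post-molt thus held both activators and repressors of the cycle. RACGAP1, a cytokinesis gene named here after its values were seen, had 0, 2, 0 and 4 reads post-molt and 73, 65, 73 and 42 reads pre-molt. Its groups did not overlap (-5.32 ± 1.63, edgeR adjusted p = 0.184). DESeq2 gave RACGAP1 an unadjusted p of 2.14e-06 and no adjusted p.

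Markers of some cell types also differed between the groups. Markers of fibroblasts and fibro-adipogenic progenitors, which can divide in muscle, summed to 194 to 474 CPM post-molt and 452 to 1459 CPM pre-molt. Of the 9 tested, 6 were lower at an unadjusted p under 0.05, against 6.22% of all genes, with a median of -1.46 and edgeR calls for 0. None of the 10 listed was at 0 in all libraries. Satellite cell and myoblast markers summed to 128 to 175 CPM post-molt and 102 to 167 CPM pre-molt (median 0.32, with 4 of 6 tested above 0). SDC4 held most of that sum, at 98.3 CPM post-molt and 89.2 CPM pre-molt on average. MYOG was 3.70-fold lower post-molt with overlap (edgeR adjusted p = 0.348), and PAX7 gave -0.93 ± 1.28 (0.872). Endothelial markers summed to 430 to 485 CPM post-molt and 466 to 607 CPM pre-molt, and macrophage markers to 24.7 to 54.3 and 20.7 to 75.5 CPM. Of the 10 endothelial markers tested, 5 were below 0 and 5 above, with a median of -0.0002. Among them KDR, a receptor of VEGF, was 2.74-fold lower post-molt without overlap (edgeR adjusted p = 0.0807), as 5.11% of all genes were lower without overlap. Of the 8 macrophage markers tested, 5 were below 0 and 3 above. CD68 among these was 4.42-fold higher post-molt (edgeR adjusted p = 0.504). Its groups did not overlap, by a thin margin (at least 1.691 CPM post-molt and at most 1.689 CPM pre-molt), as 4.04% of all genes were higher without overlap. Adipocyte markers summed to 86.8 to 182 CPM post-molt and 88.5 to 271 CPM pre-molt, with 5 of 6 tested below 0 (against 53.6% of all genes) and a median of -0.89. CIDEC, a lipid droplet protein gene, was 4.88-fold lower post-molt without overlap (edgeR adjusted p = 0.0542). Myofiber markers were abundant in every library, as the tissue label says, summing to 175823 to 256760 CPM post-molt and 193425 to 305874 CPM pre-molt, although MYH7 and MYH2 were not among the symbols. Of 8 myofiber markers 7 were below 0 (median -0.53), with the actin gene ACTA1 1.90-fold lower without overlap (edgeR adjusted p = 0.123) and the creatine kinase gene CKM 1.56-fold lower with overlap (0.321). SDC4, MYOG, PAX7, KDR, CD68, CIDEC, ACTA1, CKM and MB were named after their values were seen. The part that the lower fibroblast, adipocyte and myofiber markers had in the lower values of MCM3, GADD45A, E2F1 and the low genes was not tested.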

How the data were processed

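Raw read counts per gene were deposited by the authors for 8 libraries. Paired reads had been aligned by STAR, with the Hawaiian monk seal as the reference species, and bcl2fastq 2.20, R 3.4.3 and DESeq2 1.18.1 are named in the submitters' notes. The strand setting of the counting is not given in the sources used here, so reads of overlapping genes on opposite strands cannot be told apart, and reads of 1 seal species were counted on the genes of another. Entries without a gene name (8 of 24349) were left out, holding 0.0145 to 0.0187% of a library. All 40 listed symbols are gene symbols in the RefSeq annotation mMirAng1.0.hap1. No 2 libraries were copies of each other (lowest chi-square per degree of freedom over 28 pairs, 99.0). Promoter motifs were not analysed here.

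Genes were kept with filterByExpr of edgeR 4.0.16 (minimum count 10, minimum total 15), scaled with TMM factors and compared by the quasi-likelihood F-test in R 4.3.3, with Benjamini-Hochberg adjustment over all genes tested. Standard errors were derived from the fit. DESeq2 1.42.0 and limma-voom of limma 3.58.1 were alternatives. DESeq2 gave 477 genes with a count no p, and 9411 no adjusted p. The fits were checked on simulated data. Named genes were the 12 members with the smallest p, 8 members set by name (MKI67, TOP2A, PCNA, MCM2, CCND1, CDK4, RB1 and CDKN1A) and the 6 other cell cycle genes with the smallest p. Members and lists were chosen with earlier results of these data known. Replicates are seals, and 1 seal is in both groups, so libraries are not all independent.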

Additional observations from a re-analysis of the deposited data

Results flagged for a closer look

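Among 62 groups of 4 libraries, 1 library stood far from the other 3 in 3 cases, a rate that chance gives in about 1 in 20 groups. CDC6 was at 1.41 CPM in pre-molt 5842, against 0.336 to 0.357 CPM in the other pre-molt libraries. RB1 was at 13.2 CPM in pre-molt 5572, against 22.6 to 23.2 CPM in the others. CDKN1C was at 54.6 CPM in pre-molt 5572, against 34.5 to 36.6 CPM in the others.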

How the results depend on the processing

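No paired analysis was possible because, of the seals with libraries here, only 5572 has one at each time. Over all genes edgeR called 31 higher and 19 lower; leaving out each library in turn gave 7 to 28 and 2 to 21, with no filter 128 and 97, with DESeq2 335 and 316, with limma-voom 55 and 39, without both libraries of seal 5572 3 and 2, and without pre-molt 5842 and post-molt 9678 0 and 0, as also with post-molt 4448 left out too, which was added once the data had been seen and leaves 2 post-molt and 3 pre-molt libraries. Members called were 0 higher and 0 lower; with 1 library left out 0 to 1 in each direction, with no filter 1 and 2, with DESeq2 2 and 2, and with limma-voom 0 and 2. Members at an unadjusted p under 0.05 were 2 higher and 3 to 6 lower with 1 library left out, and 2 lower without seal 5572 or without the 3 libraries. The members' median was -0.45 to -0.16 with 1 library left out and -0.13 without the 3 libraries. Other cell cycle genes called lower were 2 with no filter and 7 with DESeq2, and 0 in either direction with 1 library left out. At an unadjusted p under 0.05 these were 0 to 2 higher and 9 to 14 lower with 1 library left out, with 0 higher without seal 5572 and without the 3 libraries. GADD45A, GADD45G, MCM3 and CDKN1B kept their direction under all 18 alternatives. The sign turned for CDK4 without the 3 libraries (0.019), for MCM2 without post-molt 9678 (-0.10, with 1.23 the highest of the fits that left out 1 library) and for CDKN1A without post-molt 9678 (-0.029, with 0.29 the highest), without pre-molt 5842 and post-molt 9678 (-0.087) and without the 3 libraries (-0.11). The cause of these shifts was not tested. Zeros of genes with few reads cannot be read as absence, and they did not go with a low total in post-molt 4448, which had the most reads.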
